A study of Oryza sativa with 6 samples.

Results

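In rice seedlings of the Epi-df line, 28 probe sets had intensities that were at least 2 times those of the wild type in every pairing of an Epi-df with a wild type array. A probe set is the group of short oligonucleotides on an Affymetrix array that reports 1 transcript or a few near-identical ones. The members were chosen by their values: the lowest of the 3 Epi-df intensities had to be at least 2 times the highest of the 3 wild type intensities and at least 200. MADS16, a floral organ identity gene that also met the rule, was left out of the set. The rule found 28 of 57258 non-control probe sets, or 0.0489%, and another 11 passed the ratio but lay under the floor of 200. Because the rule used the difference between the lines itself, the gains of the members are given as a description, with no test.

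Total RNA came from 3-week-old japonica seedlings raised in artificial soil from seeds soaked for 3 days, with 3 wild type and 3 Epi-df arrays, each array 1 biological replicate. Both groups are labelled only by genotype, and Epi-df is represented by this 1 line. From the literature, Epi-df plants are dwarf and carry an epigenetic, not a sequence, allele of FIE1, which makes this gene active outside its usual tissue, the endosperm. FIE1 is a subunit of a Polycomb complex, which places repressive methyl marks on histone H3 and so keeps developmental genes silent. Genes that gain transcript in such a line can be direct targets or can lie far downstream, and array levels do not tell these apart. Whole seedlings were used, so a higher level in more cells and a higher level per cell cannot be told apart.

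The deposited values were alike in level, with median intensities of the non-control probe sets between 108.1 and 114.5. MAS5, which produced these values, scales each array, so alike medians do not show that the RNA samples were alike. Intact RNA keeps the 3' over 5' signal of actin low, and this ratio was between 9.83 and 10.7 on the arrays of the wild type. It was 13.8, 7.72 and 9.20 in Epi-df replicates 1, 2 and 3. The 3' signal was thus at least 7.72 times the 5' signal on every array, and whether the RNA was intact was not tested. Of the marker genes listed for leaf, 3 of 8 had a named probe set, and their summed intensity was 50526 to 52803 in the wild type and 49827 to 57923 in Epi-df. For root, 2 of 5 were found, with sums of 392 to 467 and 499 to 688, nearly all of it from the silicon transporter gene LSI1, since the other, LSI2, had means of 22.5 and 24.3. For flower and seed, 9 of 11 were found, with sums of 969.5 to 1087 and 1155 to 1285. Of these 9 markers, 4 had a higher mean in Epi-df and 5 a lower one (MADS3, MADS6, MADS7, MADS58 and RA17). The mean of MADS2 was 470 in the wild type and 597 in Epi-df, that of MADS8 was 49.5 and 86.6, and prolamin was at 40.1, 22.3 and 102 in the wild type and 66.3, 252 and 24.0 in Epi-df. The root and the flower and seed sums were thus higher in each Epi-df array than in any wild type array, and their part in the gains below was not tested.

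In the annotation used, 4 of the members' genes have a name that is not just a locus number, and they belong to different processes. The platform annotation paired 21 of the 28 members with 1 gene each, which made 20 genes, and 7 with none. Among all non-control probe sets with a lowest Epi-df value of at least 200, 72.4% were paired with 1 gene, close to the members' 75%. PMEI8 belongs to the pectin methylesterase inhibitors, proteins that hold back the enzymes that remove methyl groups from cell wall pectin. TGAL11 (also bZIP83) is a bZIP transcription factor of the TGA type, CML31 a calmodulin-like protein of the kind that binds calcium, and RBM8 (also Y14B) a form of Y14, the RNA-binding subunit of the exon junction complex that is left on spliced mRNA. The remaining 16 genes are given by their locus number, with no role stated.

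**Figure D1:**
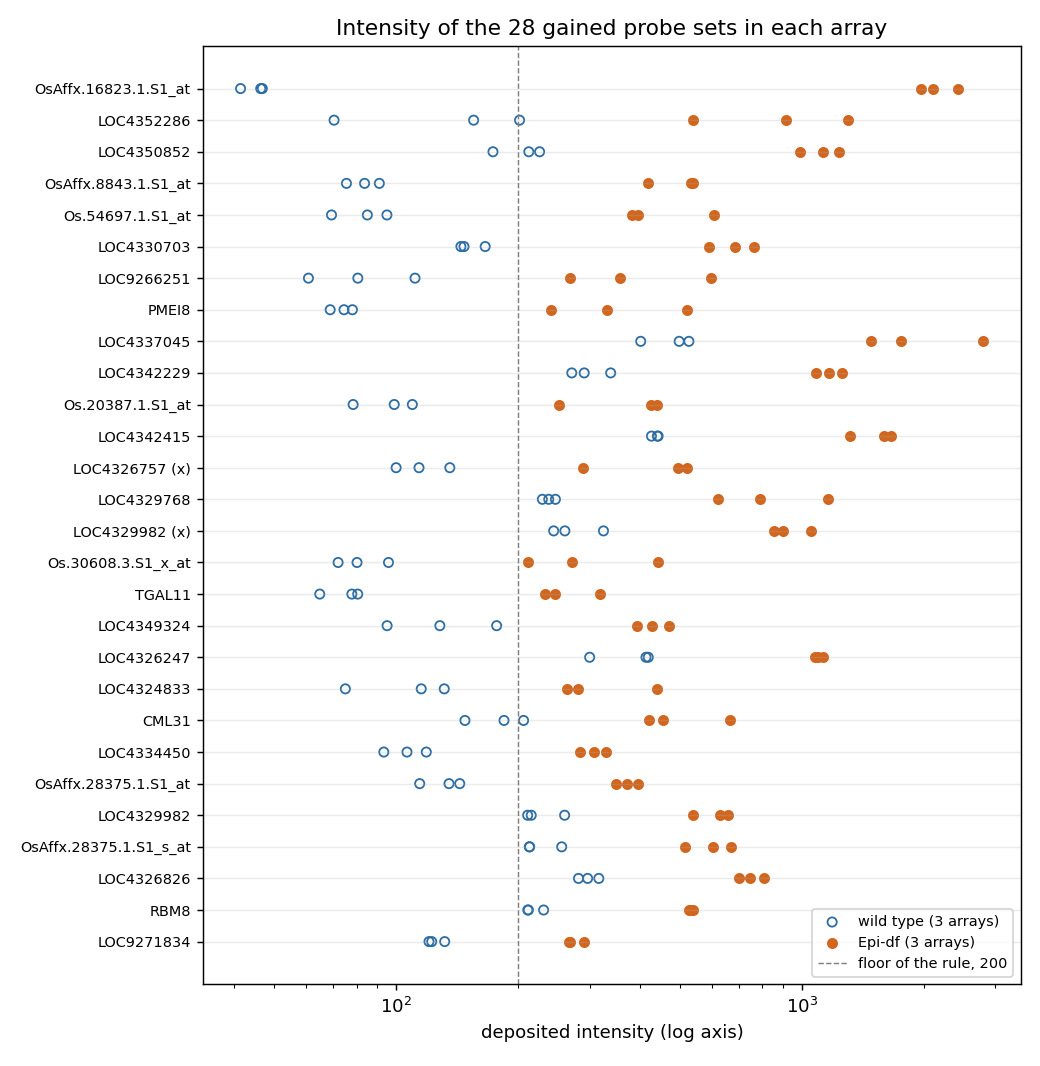
Deposited intensity (log axis) of the 28 members in each of the 3 wild type (open circles) and 3 Epi-df (filled circles) arrays, ordered by the mean log2 difference between the lines; (x) marks a probe set with the suffix _x_at, and the dashed line is the floor of 200. Wild type values lay between 41.4 and 527, Epi-df values between 211 and 2801, and within each member all Epi-df values are above all wild type values, as the rule requires.

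OsAffx.16823.1.S1_at, which is paired with no gene, had the largest gain. Its wild type intensities were 46.9, 46.5 and 41.4, and its Epi-df intensities 1971, 2429 and 2100.5. The wild type values lay at percentile 21.1 of all non-control probe sets by their mean, and the Epi-df mean lay at percentile 94.6. The ratio of the means was 48.2, and the log2 difference 5.16 ± 0.10 (SE, n = 3 arrays in each group). Log2 differences were taken after adding 16 to each intensity, so those of dim probe sets come out too small. For the members, the SE comes from the spread of the arrays within the groups. The second highest ratio of means in the set was 6.45, so this probe set stood far apart from the other 27 members. Whether it measures FIE1 was not tested.

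Next by log2 difference came 3 members that differed in how close together their arrays lay, with ratios of means of 6.45, 5.48 and 5.96. LOC4352286 measured 155, 202 and 70.4 in the wild type and 540.1, 916 and 1301 in Epi-df, a log2 difference of 2.58 ± 0.54. Its arrays were the most scattered of the set in both lines, with highest over lowest values of 2.86 and 2.41. LOC4350852 was at 173, 213 and 226 in the wild type and at 1236, 1127 and 989 in Epi-df, a log2 difference of 2.37 ± 0.14. The unpaired probe set OsAffx.8843.1.S1_at was at 83.7, 75.5 and 91.04 against 534, 418 and 539, a log2 difference of 2.36 ± 0.13. In both of these the arrays of a line lay close together and the lines far apart.

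A further unpaired probe set, Os.54697.1.S1_at, was among the 5 dimmest members in the wild type. It measured 95.04, 85.05 and 69.4 in the wild type and 394, 381 and 608 in Epi-df, a log2 difference of 2.24 ± 0.24. LOC4330703 was at 147, 145 and 166 against 687, 591 and 762, with a log2 difference of 2.04 ± 0.12. LOC9266251 was at 60.9, 80.6 and 111 against 356, 269 and 596, with a log2 difference of 2.03 ± 0.39. In all 3, Epi-df replicate 3 was the highest and replicate 2 the lowest.

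The cell wall gene PMEI8 measured 68.9, 74.5 and 78.2 in the wild type and 241, 332 and 522 in Epi-df. Its wild type arrays were tight and its Epi-df arrays were spread, with a highest over lowest value of 2.17, and its log2 difference was 2.02 ± 0.31. The transcription factor gene TGAL11 was at 64.9, 80.5 and 77.9 in the wild type and at 233, 246 and 318 in Epi-df, a log2 difference of 1.63 ± 0.15. Both were dim in the wild type, at percentiles 36.9 and 37.2 of all non-control probe sets. TGAL11 had the lowest Epi-df mean of the set, 266 ± 45.8 (SD, n = 3).

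The calcium sensor gene CML31 was at 206, 148 and 185 in the wild type and at 454, 419.5 and 665 in Epi-df. Its log2 difference was 1.42 ± 0.24, and its lowest Epi-df value was 2.03 times its highest wild type value, just inside the rule. RBM8 had the closest Epi-df values of all members, 529.9, 529 and 540.2, against 212, 211 and 231 in the wild type. Its gain was among the smallest of the set, a log2 difference of 1.23 ± 0.04, yet its SE was also the smallest. The Epi-df arrays of RBM8 thus lay close together, while those of CML31 were spread by the high value of replicate 3.

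The brightest members in the wild type were 5 genes known by locus only. LOC4337045 measured 401, 499 and 527 in the wild type and 1752, 2801 and 1482 in Epi-df, a log2 difference of 2.00 ± 0.30. It had the highest single intensity of the set. LOC4342415 was at 441, 426 and 443 against 1594, 1662 and 1314, a log2 difference of 1.76 ± 0.10. LOC4326247 was at 300.2, 419 and 413 against 1096, 1131 and 1076, a log2 difference of 1.52 ± 0.15. In all 3 of these genes Epi-df replicate 2 was the highest and replicate 3 the lowest.

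Like LOC4326247, the last 2 of these brighter members had narrow Epi-df values. LOC4342229 was at 338, 291 and 271 in the wild type and at 1258, 1086 and 1166 in Epi-df, a log2 difference of 1.91 ± 0.11. LOC4326826 was at 297, 282 and 316 against 747, 699 and 806, a log2 difference of 1.29 ± 0.07. No member came near the top of the scale, where the highest intensity on any array was 24975.

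LOC4329982 is the 1 gene with 2 members, and both gave a gain, of unequal size. Os.52563.1.S1_at measured 260.4, 211 and 216 in the wild type and 658, 629.8 and 538 in Epi-df, a log2 difference of 1.35 ± 0.12. Os.52563.2.S1_x_at measured 325, 245 and 261 against 852, 1052 and 899, a log2 difference of 1.70 ± 0.15. The suffix _x_at marks a probe set with probes that may also bind other transcripts. Another pair shares a design number: Os.30608.3.S1_at, which stands for LOC9266251, and Os.30608.3.S1_x_at, which is paired with no gene. The second was at 80.2, 72.05 and 95.9 in the wild type and 271, 211 and 442 in Epi-df, with the same order of the Epi-df arrays as the first. The pair OsAffx.28375.1.S1_at and OsAffx.28375.1.S1_s_at has no gene. Counted by the first number in their names, the 28 members form 25 groups, so they are not 28 separate observations.

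The other 9 members were LOC4326757, LOC4329768, LOC4349324, LOC4324833, LOC4334450, LOC9271834 and the unpaired Os.20387.1.S1_at and OsAffx.28375.1 pair. Their wild type intensities lay between 75.1 and 256 and their Epi-df intensities between 252 and 1163. Their ratios of means ran from 2.21, in LOC9271834, to 3.89, in Os.20387.1.S1_at.

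Seen as a set, the members were of middling level in the wild type and moderately bright in Epi-df. Their wild type means ran from 44.9 to 476 with a median of 138, against a median of 112 over all non-control probe sets, and 10 of the 28 lay under the latter. By level, 8 members had a wild type mean under 100, 16 between 100 and 300 and 4 above 300. In Epi-df the means ran from 266 to 2167 with a median of 523, and 6 members were above 1000. The ratio of means was under 3 in 9 members, 3 to 4 in 10 and over 4 in 9, with a median of 3.58. The median log2 difference was 1.72, where the median over all non-control probe sets was 0.01.

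**Figure D2:**
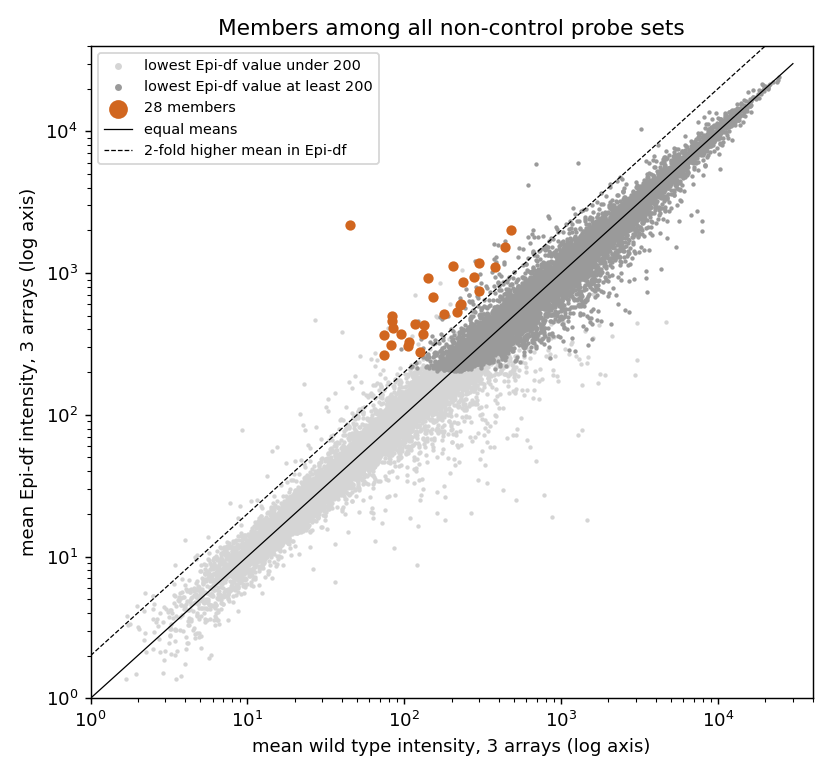
Mean Epi-df intensity against mean wild type intensity (both log axes, 3 arrays each) for all 57258 non-control probe sets; the 28 members are the large points, the solid line marks equal means and the dashed line a 2-fold higher mean. The members lie above the dashed line between wild type means of 44.9 and 476, and OsAffx.16823.1.S1_at stands alone at 44.9 against 2167.

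A gain of this kind was the rarer direction. The same rule turned round, with the lowest wild type value at least 2 times the highest Epi-df value and at least 200, held for 58 probe sets. Of the 19713 probe sets with a lowest Epi-df value of at least 200, 2391 (12.1%) were higher in Epi-df with no overlap between the groups, so the ratio of 2 and not the separation of the groups kept the set small. In the limma fit over the table, 61 of 34355 tested probe sets (0.178%) were called higher in Epi-df (2-fold or more, adjusted p below 0.05), 150 (0.437%) lower and thus 211 (0.614%) in either direction. All 28 members passed the filter on low values and were among these 61, which follows from the rule that chose them and adds no evidence. MADS16 was another of the 61. The remaining 32 missed the rule, 22 of them by the ratio alone, 7 by the floor alone and 3 by both. The count of higher calls fell to 38 without wild type replicate 1 and to 40 without wild type replicate 2, and that of lower calls to 73 and 77.

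The edge of the ratio cuts through a run of similar probe sets. Just inside lay OsAffx.28375.1.S1_s_at, LOC4324833, LOC9271834, CML31 and 1 of the LOC4329982 probe sets, with ratios of lowest Epi-df to highest wild type value from 2.01 to 2.07. Just outside lay LOC4331786, LOC4328109, LOC4337163, LOC4331988 and the unpaired OsAffx.16038.1.S1_s_at, at 1.99, 1.99, 1.94, 1.90 and 1.88. LOC4331786 was brighter in the wild type than any member, with 941, 971 and 922 in the wild type and 2066, 2110.2 and 1937 in Epi-df. At the edge of the floor, the lowest Epi-df value was 211 in Os.30608.3.S1_x_at, 233 in TGAL11 and 241 in PMEI8. Just under it were the unpaired Os.53480.1.S1_x_at at 163, MADS17 at 151 and a chitinase gene named Cht1 at 149.

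MADS17, a floral MADS-box gene related to AGL6, passed the ratio by far and missed only the floor. Its intensities were 21.7, 24.5 and 22.1 in the wild type and 188, 151 and 159 in Epi-df. Its lowest Epi-df value was 6.17 times its highest wild type value, a ratio exceeded in the set only by OsAffx.16823.1.S1_at.

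Within Epi-df the members did not follow 1 pattern, but many were highest in replicate 3. Replicate 3 held the highest value of 16 members and replicates 1 and 2 that of 6 each. Among all probe sets with a lowest Epi-df value of at least 200, replicate 3 was the highest array in 32.1%. Replicate 2 held the lowest value of 15 members, replicate 1 of 7 and replicate 3 of 6, and the share over all probe sets was not counted. These counts include members that share a design. The median deviation of the members from their Epi-df mean was -0.02, -0.08 and 0.09 on the log2 scale in replicates 1, 2 and 3. Over all probe sets with a lowest Epi-df value of at least 200 it was 0.002, 0.008 and -0.01. Without Epi-df replicate 2, which had the lowest actin ratio, 49 probe sets met the rule, and without any other single array 32 to 42 did. The part of RNA quality in this was not tested.

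**Figure D3:**
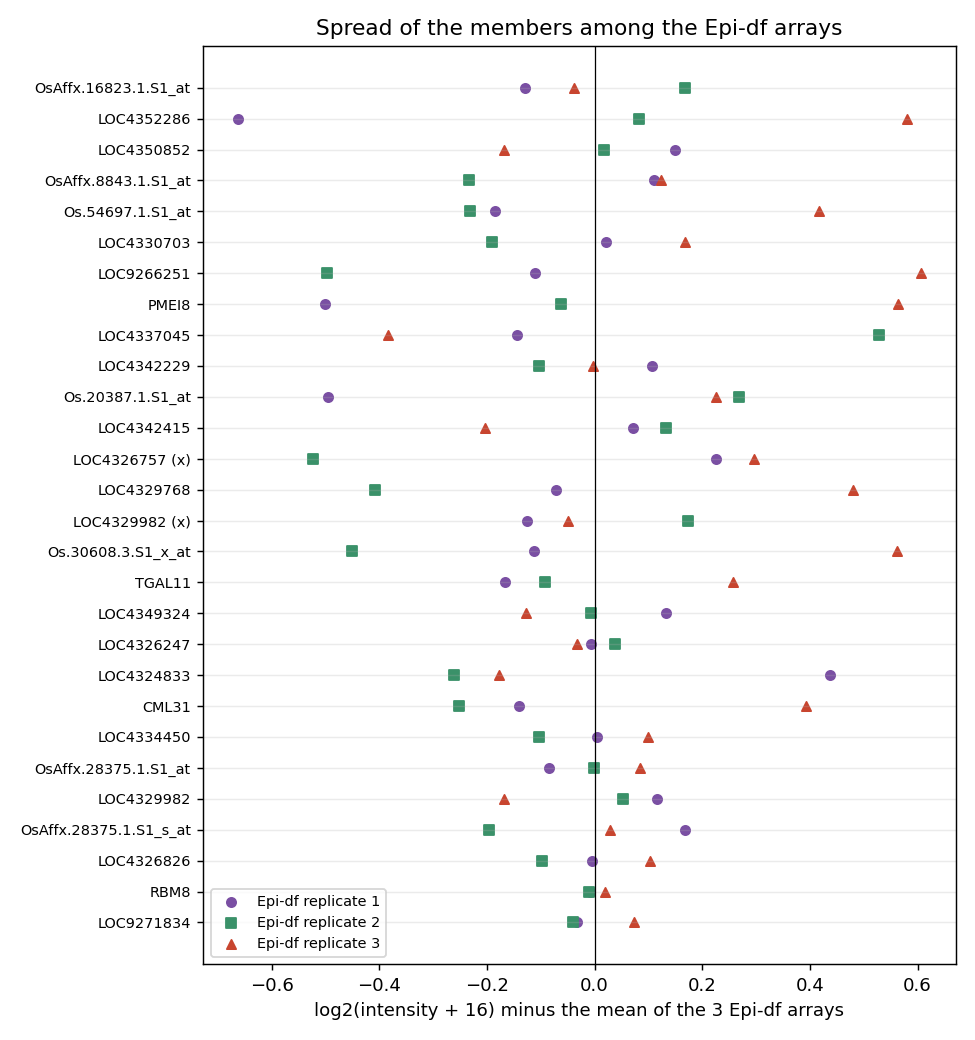
Deviation of each Epi-df array from the mean of the 3, on the log2(intensity + 16) scale, for the 28 members in order of gain; circles, squares and triangles are replicates 1, 2 and 3, and (x) marks the suffix _x_at. Triangles are furthest right in 16 members and squares furthest left in 15, while RBM8 and LOC4326247 have all 3 arrays close to 0.

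The spread among the Epi-df arrays was wide in some members and narrow in others. The highest over the lowest Epi-df value was at least 1.5 in 11 members, with 2.41 in LOC4352286 and 2.22 in LOC9266251 at the top. It was under 1.2 in 7, with 1.02 in RBM8 and 1.05 in LOC4326247 at the bottom. The median was 1.29 in the members and 1.19 over all probe sets with a lowest Epi-df value of at least 200. The Epi-df spread was wider than the wild type spread in 16 of 28 members, and in 64.6% of those probe sets.

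Other probe sets with the same gene, or the same first number in their names, give a view that the rule did not choose, although they were read on the same arrays. There were 9 that were not members, 5 with the same gene and 4 with the same first number alone. All had a higher mean in Epi-df, but by a log2 difference of only 0.007 in Os.18922.1.S1_at and 0.06 in Os.30608.2.S1_x_at. In 7 of the 9 the groups did not overlap. A pair among the 9 shares a design number, so they are not 9 separate observations. The share of all probe sets with a higher Epi-df mean was not counted, so the count of 9 has no background to be read against. In 1 of the 9 the gain was as large as in its member. Os.9191.1.S1_s_at, the second probe set of LOC4326757, was at 105, 92.2 and 145 in the wild type and 463, 244 and 600 in Epi-df, a log2 difference of 1.73. The member for this gene also had a log2 difference of 1.73, and the remaining probe set of the gene was dim, with means of 19.5 and 34.8. The second probe set of LOC4330703 was at 38.04, 47.6 and 42.8 against 103, 77.8 and 79.4, a log2 difference of 0.80 with no overlap.

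For the other genes the additional probe sets showed less. The second probe set of LOC4352286 was at 28.02, 20.98 and 25.96 in the wild type and 33.05, 35.2 and 72.9 in Epi-df, again highest in replicate 3. A second probe set paired with LOC9266251, Os.30608.2.S1_x_at, measured 91.2, 87.9 and 68.2 against 83.2, 74.6 and 102, and the groups overlapped. The gain of LOC9266251 thus rests on the Os.30608.3 design, and which transcript that design measures was not tested. Os.18922.1.S1_at shares the first number of its name with the CML31 probe set but is paired with no gene. It was at 58.6 ± 7.76 in the wild type and 58.8 ± 4.63 in Epi-df (SD, n = 3).

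The calmodulin, bZIP and PMEI lists held 38 tested genes that are not members, and none was called. With 0.614% of all tested probe sets called in either direction, a count of 0 among 38 is near the background and is not a result about these families. In the limma fit, none of the 21 other tested calmodulin and calmodulin-like genes was called. Their log2 differences ran from -0.51 to 0.68 around a median of 0.03, and the lowest adjusted p was that of CML15 (limma adjusted p = 0.0569). None of the 16 other tested bZIP genes, TGA-type factors among them, was called either, with log2 differences from -0.67 to 0.35. The TGA-type gene TGAL4 had a log2 difference of 0.35 ± 0.08 (SE of the limma fit, as for the genes below, limma adjusted p = 0.0839). PMEI28, the other named gene of the PMEI type, had one of -0.27 ± 0.15 (limma adjusted p = 0.496).

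Genes for the known partners of RBM8 were not called either. With 0.614% of all tested probe sets called in either direction, the lack of a call in so few genes is not a result about the partners. Y14 proteins pair with MAGO proteins in the exon junction complex, and this comparison was chosen after the values of RBM8 were seen. MAGO1 was at 467 ± 21.1 in the wild type and 471 ± 41.2 in Epi-df (SD, n = 3), and MAGO2 at 2215 ± 130.1 and 2214 ± 188. Their log2 differences were 0.01 ± 0.09 and -0.002 ± 0.09 (limma adjusted p = 0.982 and 0.994).

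Calls were made in the glutathione transferase, plasma membrane aquaporin and MADS-box lists, which were chosen with earlier results of these data known. None of the lists holds a member, although MADS16 met the rule and was left out by name. Over all tested probe sets 0.178% were called higher and 0.437% lower. Because the lists were chosen in that way, their counts are not a result about these families. Of 6 glutathione transferase genes, GSTU6 was called higher and the gene named GST-I lower (limma adjusted p = 0.0267 and 0.0337). The call of GSTU6 was lost without any 1 wild type array or without Epi-df replicate 1 (highest limma adjusted p 0.126). That of GST-I held only without Epi-df replicate 1 (highest 0.112). GSTU6 was the next probe set outside the ratio, at 1.87, with 575, 563 and 695 in the wild type and 1541, 1298 and 2565 in Epi-df. Of 9 tested aquaporin genes, PIP1-3 was called higher, at a log2 difference of 1.02 ± 0.16 (limma adjusted p = 0.0273), a call lost in 4 of the 6 fits that each omitted an array and kept where the omitted one was Epi-df replicate 2 or the wild type's replicate 3 (highest limma adjusted p 0.114). Of 13 tested MADS-box genes, MADS16, MADS17 and MADS27 were called higher and MADS50 and MADS55 lower. The call of MADS55 was lost without wild type replicate 1 (limma adjusted p = 0.0503), and those of MADS16 and MADS50 held without any single array. MADS17 was called in each of the 5 fits that tested it. The wild type means of MADS17 and MADS27, 22.8 and 54.9, lay under the filter level of 81.1. Both genes were thus tested only through their higher Epi-df values. The Polycomb genes fie, EZ1 and MSI1, whose products are known as subunits of such complexes, had log2 differences of 0.06 ± 0.09, -0.02 ± 0.08 and 0.07 ± 0.07 (lowest limma adjusted p = 0.754). The gene listed as fie (LOC4344620) had means of 1876 in the wild type and 1948 in Epi-df. Whether its probe set measures FIE1 was not tested, so its value is not a reading of FIE1.

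**Figure D4:**
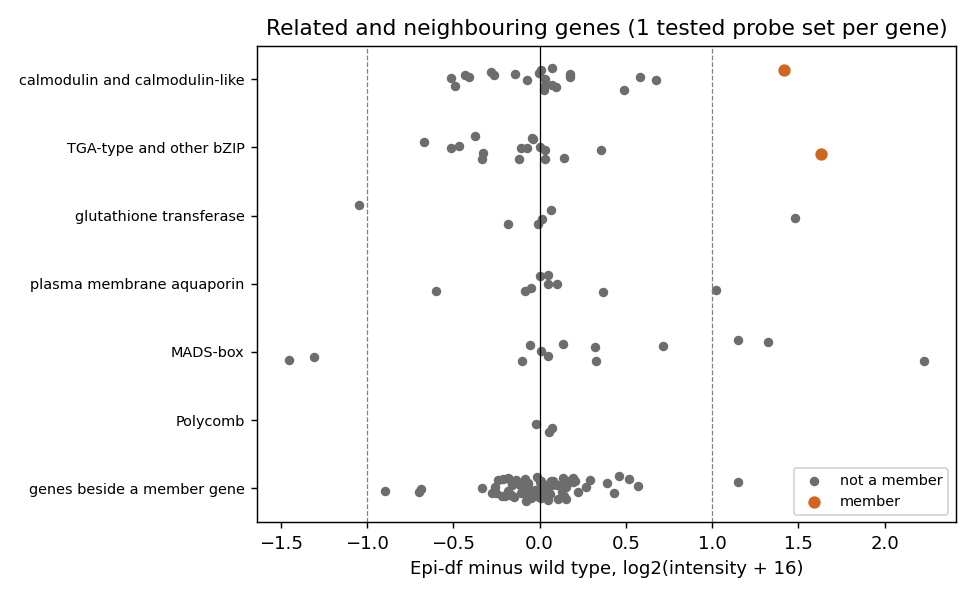
Difference between Epi-df and wild type on the log2(intensity + 16) scale for genes of 6 families and for the genes on either side of a member gene, with 1 tested probe set per gene; large orange points are members, dashed lines mark 2-fold. The members lie at the right by the rule that chose them, and the genes beside members gather around 0 with 1 above the dashed line.

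No member gene lay directly beside another in the gene order, and 1 of 80 neighbouring genes was called higher. Over all tested probe sets 0.178% were called higher, and a single call is too few to read as a result about neighbours. All 20 could be placed in the RefSeq gene order (assembly ASM3414082v1), no coordinates of which are given because the array names no build. The closest 2, LOC4329982 and LOC9266251, had 70 protein-coding genes between them, and LOC4334450 and RBM8 had 77. LOC4329768 was 214 genes from LOC4329982 on 1 side and 200 from PMEI8 on the other. Whether the member genes lie closer together than other genes was not tested. Taking the nearest 2 tested genes on each side gave 80 neighbours, at most 15 genes away. Their median log2 difference was 0.01, with a range from -0.89 to 1.15, and none was called lower in the limma fit.

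The called neighbour was MADS27, the second gene along from LOC4329768. Its wild type mean lay under 81.1, the level of the filter on low values. It thus counted as a tested neighbour only through its higher Epi-df values. MADS27, of a MADS-box group known from roots and nitrate responses, was at 54.9 ± 7.10 in the wild type and 143 ± 31.2 in Epi-df (SD, n = 3), a log2 difference of 1.15 ± 0.14 (limma adjusted p = 0.0124). This call was lost without replicate 1 or replicate 2 of the wild type and also without replicate 3 of Epi-df (highest limma adjusted p 0.0744, lowest log2 difference 0.998). LOC4329768 itself was at 247, 238 and 229.6 in the wild type and 788, 621 and 1163 in Epi-df. The next tested genes around this pair had log2 differences of 0.005, 0.14 and -0.16, with limma adjusted p of 0.990, 0.889 and 0.723.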

How the data were processed

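The values analysed are the linear probe set intensities the authors deposited, which MAS5 produced, per the submitters' processing notes. The MAS5 version and the target of its scaling are not given in the sources used here. No detection calls were used and no further scaling was made. Groups and replicate numbers come from the sample titles, and nothing in the labels ties arrays of equal number together.

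Differences were computed as log2(intensity + 16). The whole table was fitted in R 4.3.3 with the limma package, version 3.58.1, by lmFit and eBayes with a trend on level, two-sided and with Benjamini-Hochberg adjustment. Probe sets under the 40th percentile of the mean (81.1) were left out, which left 34355. A call is an adjusted p under 0.05 with at least a 2-fold change. A log2 difference printed with a limma adjusted p carries the SE of this fit, which draws on all tested probe sets. That of a member carries the SE from its own arrays, so the 2 kinds of SE are not alike. The fit was tested on simulated arrays. It first missed the share of changed probe sets it was required to recover, and the requirement was then replaced, after this was seen, by one on bias and false calls. A probe set that was not called may thus have changed. For a family or a neighbour, the brightest tested or listed probe set stood for its gene.

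Genes were named from the platform annotation, which pairs 22436 of 57258 probe sets with 1 gene, and from synonyms in the RefSeq table. The members and gene lists were chosen with earlier results of these data known. Intensities by array are given for members with a gene name, the 10 largest gains, the 5 brightest and 5 dimmest in the wild type and members that share a gene. Promoter sequences were not analysed here. Arrays number 3 in each group, which limits the precision of every value.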

Additional observations from a re-analysis of the deposited data

How the results depend on the processing

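The size of the set depends on the thresholds of its rule. It was 16 with a floor of 400, 79 at a ratio of 1.5 and 7 at a ratio of 3, and 35 with a floor of 100. Leaving out 1 array, which loosens the rule by construction, gave 32 to 49 probe sets, all 28 members among them each time. With each array scaled to the same median, or after quantile normalization, LOC4324833 and OsAffx.28375.1.S1_s_at, both at a ratio of 2.01, left the set. LOC4328109 entered under both, and LOC4331786 under quantile normalization alone, so the set held 27 and 28 probe sets. The median log2 gain of the members was 1.43 with a pseudocount of 64, which shrinks the change of dim probe sets, and 1.62 to 1.76 when 1 array was left out. The count of higher limma calls was 38 to 91 when 1 array was left out: 38 and 40 without wild type replicates 1 and 2, and 91 without Epi-df replicate 2, and the cause was not tested. With the replicate number as a block it was 80, against 61 without the block. The count of lower calls, whose alternatives were added after seeing the data, was 150. It was 73 to 200 when 1 array was left out, with 73 and 77 without wild type replicates 1 and 2, and 244 with the replicate block. Deviations of arrays with equal numbers correlated at 0.13, 0.33 and -0.06, and those of arrays with unequal numbers at -0.30 to 0.13. Whether the numbers pair the samples was not tested. Under the other pseudocounts, filters and scalings the count of higher calls was 48 to 72 and that of lower calls 116 to 178. Among called genes outside the set, MADS16, MADS50 and MADS17 kept their call in each fit without 1 array that tested them. No detection calls were used, so whether the dimmest members are expressed in the wild type was not tested.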
